A study of Mus musculus with 10 samples.

Results

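The genes described here are 9 genes of cell senescence and the p53 response, Cdkn1a, Cdkn2a, Cdkn2b, Cdkn1b, Trp53, Mdm2, Ccng1, Lmnb1 and Gdf15, found by gene symbol among the 55487 genes of a mouse ovary RNA-seq table. All 9 were in the table, and all 9 were among the 18956 genes that had enough reads to be tested. The ovaries came from C57BL/6J mice in 3 groups. The Control group (n = 4) was 8 weeks old. The Aged group (n = 3) and the Aged+CF group (n = 3) were 11 months old by their labels, and the study's methods give a slightly younger age. Aged+CF mice received cell-free fat extract (CEFFE), a liquid of soluble proteins prepared from fat tissue, as repeated tail vein injections of 200 μL at 3 μg/μL, while Control and Aged mice were injected with saline. Mice of every group were given 10 IU of PMSG, a gonadotropin that stimulates follicle growth, 48 h before the ovaries were taken. The deposited counts summed to 15761789 in the shallowest and 21318254 in the deepest library. The labels list the ovaries as separate samples of a group, so p-values measure the spread between these samples.

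Senescence is a lasting arrest of the cell cycle. It is held by inhibitors of cyclin-dependent kinases (CDKs), among them p21 (Cdkn1a), p27 (Cdkn1b), p16 (Cdkn2a) and p15 (Cdkn2b), and it often comes with loss of lamin B1 (Lmnb1) from the nuclear lamina. The transcription factor p53 (Trp53) is activated by DNA damage and other stress and switches on Cdkn1a, Mdm2, Ccng1 and Gdf15, while Mdm2 marks p53 for degradation. In the ovary, p27 and p21 also rise when granulosa cells leave the cell cycle to become luteal cells, so these transcripts are not markers of senescence alone.

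The tissue label was checked with marker genes, given as summed CPM (counts scaled to library size, here with TMM factors that even out differences in composition between libraries). Granulosa markers summed to between 3164 and 8671 CPM, and luteal markers to between 6608 and 36803 CPM, over the 10 ovaries. Oocyte markers summed to 344, 461, 357 and 453 CPM in Control replicates 31, 32, 33 and 34. The corresponding sums were 98.1, 89.0 and 9.70 CPM in Aged replicates 31, 33 and 34, and 151, 130 and 201 CPM in Aged+CF replicates 30, 32 and 34. Ovarian markers were thus present in every ovary.

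Aged replicate 34 stood apart from the other Aged ovaries. Its macrophage markers summed to 1915 CPM, against 783 and 822 CPM in Aged replicates 31 and 33, and its B and plasma cell markers to 178 CPM, against 21.9 and 7.05 CPM. Markers of the oviduct, which lies beside the ovary, summed to 321 CPM in this ovary and to 408 CPM in Control replicate 33, and to between 10.9 and 42.6 CPM in the other 8 ovaries. Without Aged replicate 34, the genes past the test in Aged+CF vs Aged went from 1 to 650, and in Aged vs Control from 2927 to 4318. Several results below are therefore given with and without it.

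Per length of transcript, as FPKM, Lmnb1 was the most abundant of the 9 genes in Control ovaries at 39.2 ± 5.86 (mean ± SD, n = 4). Cdkn1b (21.9 ± 4.87), Trp53 (18.5 ± 2.44), Cdkn2b (18.3 ± 6.51) and Ccng1 (16.9 ± 1.098) followed, and neighbours in this order differed by less than the larger of their SDs. Mdm2 at 5.64 ± 0.238 and Cdkn1a at 3.44 ± 0.854 were lower, and Cdkn2a at 1.13 ± 0.424 and Gdf15 at 0.983 ± 0.548 were lowest and not separated from each other. In Aged ovaries the order was led by Cdkn1b at 41.8 ± 15.8 and Cdkn2b at 39.1 ± 21.2 FPKM, again within their spread, and Lmnb1 stood below Ccng1 (22.5 ± 1.44) at 15.2 ± 2.50 FPKM. In the Aged+CF group Cdkn2b led at 47.2 ± 22.1 FPKM, and Cdkn1a at 9.61 ± 2.78 FPKM lay above Mdm2 at 6.06 ± 0.525 FPKM.

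**Figure D1:**
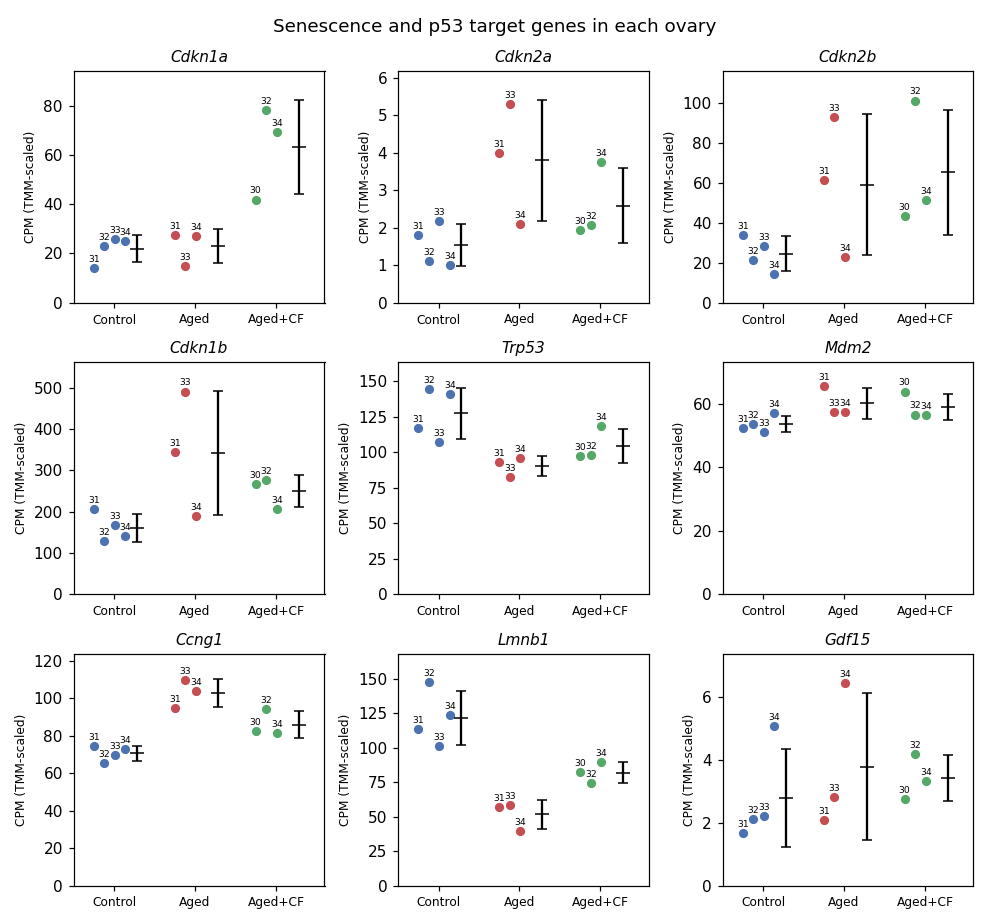
Level of each of the 9 genes in each ovary, as TMM-scaled CPM on axes that start at 0. Points are ovaries labelled with their replicate number, and bars show the mean ± SD of Control (n = 4), Aged (n = 3) and Aged+CF (n = 3). The 3 Aged+CF ovaries lie above all others for Cdkn1a, and the 3 Aged ovaries lie below all others for Lmnb1.

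Aged vs Control asks which of these genes differed with age. Of the 9 genes, 2 rose (Cdkn1b and Ccng1) and 2 fell (Lmnb1 and Trp53) at an adjusted p under 0.05, and the other 5 did not pass. Among all genes tested, 15.4% passed, 7.14% higher and 8.3% lower, with a median log2 fold change of -0.00. With a fold of at least 1.5 and an unadjusted p under 0.05, the count was 4 of 9 genes against 18.2% of all genes. An unadjusted p under 0.05 alone was met by 6 of 9 genes, against 31.6% of all genes, and DESeq2 called 6 of 9, against 22.6% of the genes to which it gave an adjusted p. The ovaries of the groups did not overlap for 4 of the 9 genes, against 27.5% of all genes.

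Aged+CF vs Aged asks what differed with CEFFE at the same age, and Aged+CF vs Control how treated ovaries compared with young ones. These comparisons share the Aged, the Control or the Aged+CF ovaries with each other, so they are not independent. In Aged+CF vs Aged, 0 of the 9 genes passed the edgeR test, against 0.00528% of all genes, while 3 had an unadjusted p under 0.05 (16.3% of all genes) and DESeq2 called 2 (Cdkn1a and Lmnb1, against 4.96% of genes). Cdkn1a and Lmnb1 were also the 2 genes with a fold of at least 1.5 and an unadjusted p under 0.05, both higher, against 7.96% of all genes (3.91% higher and 4.05% lower), and 4 of 9 did not overlap between the groups, against 18.6%. Without Aged replicate 34, 1 of the 9 was higher and 1 lower by this fold rule, and Lmnb1 no longer met it. The share of all genes by this rule in that fit is not given here. In Aged+CF vs Control, 0 of the 9 passed the edgeR test, against 0.179% of all genes, while 6 had an unadjusted p under 0.05 (14.3% of all genes) and DESeq2 called 1 (Cdkn1a, against 3.88% of genes). There, 3 genes (Cdkn1a, Cdkn2b and Cdkn1b) had a fold of at least 1.5 and an unadjusted p under 0.05, all higher, against 7.69% of all genes (3.33% higher and 4.36% lower), and 4 of 9 did not overlap, against 21.9%. The median log2 fold change of all genes was -0.02 in Aged+CF vs Aged and -0.03 in Aged+CF vs Control.

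**Figure D2:**
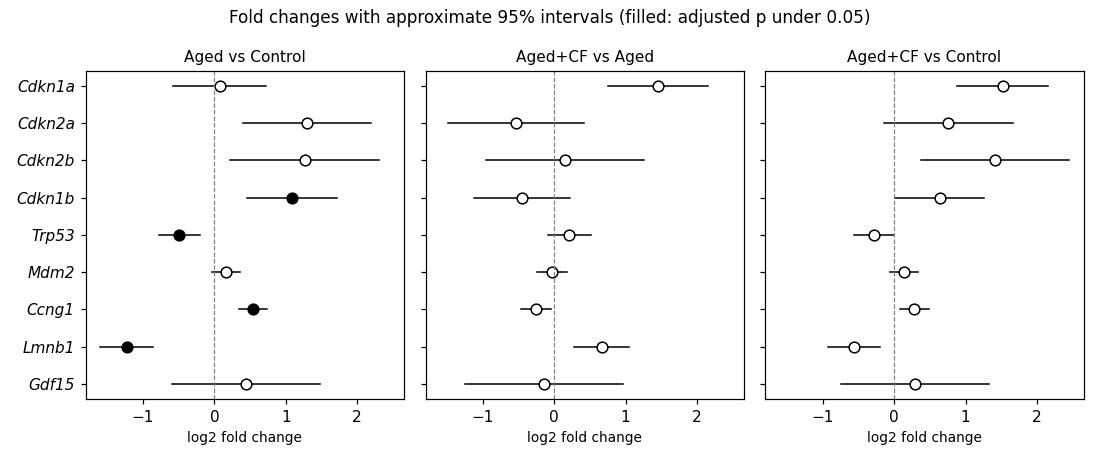
Log2 fold change of each gene in each comparison, with approximate 95% intervals from the edgeR fit of all 10 ovaries. Filled points passed an adjusted p under 0.05. In Aged vs Control, Cdkn1b and Ccng1 passed above 0 and Trp53 and Lmnb1 below 0, and no point is filled in the other panels.

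Cdkn1a encodes p21, the CDK inhibitor through which p53 stops the cell cycle. Its level was 14.1, 23.1, 25.9 and 24.97 CPM in Control replicates 31, 32, 33 and 34. Aged replicates 31, 33 and 34 had 27.3, 15.03 and 26.96 CPM, and Aged+CF replicates 30, 32 and 34 had 41.9, 78.2 and 69.4 CPM. Aged replicates 31 and 34 lay just above the highest Control ovary and Aged replicate 33 within the Control range, whereas every Aged+CF ovary was above every ovary of both other groups. Aged and Control differed by log2 0.07 (95% interval -0.57 to 0.72, edgeR adjusted p = 0.899). For Aged+CF the difference was log2 1.45 against Aged (0.75 to 2.15, edgeR adjusted p = 0.159) and 1.52 against Control (0.88 to 2.16, edgeR adjusted p = 0.0719). The higher level in the Aged+CF group thus did not pass the adjusted threshold in edgeR. With DESeq2 it did, at adjusted p = 0.00146 against Aged and 9.27e-05 against Control, where the 16 alternatives gave adjusted p from 0.00146 to 0.728 and from 9.27e-05 to 0.327. Against Control it also passed in edgeR without Aged replicate 33 (adjusted p = 0.0468) or Aged replicate 34 (adjusted p = 0.0326), and with the compared groups alone (adjusted p = 0.0267). Against Aged it did not pass without Aged replicate 34 (log2 1.56, edgeR adjusted p = 0.0508).

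Cdkn1b encodes p27, which binds cyclin E and cyclin A complexes of CDK2. Its level was 207, 128, 167 and 141 CPM in Control replicates 31, 32, 33 and 34. The Aged ovaries had 345, 491 and 190 CPM in replicates 31, 33 and 34, and the Aged+CF ovaries 266, 278 and 206 CPM in replicates 30, 32 and 34. Aged replicate 34 lay within the Control range, and Aged replicates 31 and 33 above every other ovary. Cdkn1b rose 2.13-fold in Aged vs Control (log2 1.09 ± 0.28 SE, edgeR adjusted p = 0.0300). The rise was log2 1.41 without Aged replicate 34 (edgeR adjusted p = 0.00342). The call was lost without Control replicate 32 (edgeR adjusted p = 0.0827), 33 (0.0612) or 34 (0.0808), without Aged replicate 31 (0.0657) or 33 (0.0952), and with the compared groups alone (0.0626), over a range from 0.00224 to 0.170 in 16 alternatives. Against Aged, the Aged+CF group differed by log2 -0.45 (edgeR adjusted p = 0.479), and against Control by 0.64 (edgeR adjusted p = 0.343). The first of these ranged, in the fits without 1 ovary, from -0.76 without Aged replicate 34 (edgeR adjusted p = 0.0923) to -0.10 without Aged replicate 33 (edgeR adjusted p = 0.900). Over 16 alternatives it reached -0.013.

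Cdkn2a encodes p16 and, from another first exon, p19Arf, which inhibits Mdm2. It was rare, with 18 to 80 reads per ovary. Its level was 1.81, 1.12, 2.18 and 1.01 CPM in Control replicates 31, 32, 33 and 34. In Aged replicates 31, 33 and 34 it was 3.996, 5.29 and 2.095 CPM, and in Aged+CF replicates 30, 32 and 34 it was 1.95, 2.07 and 3.75 CPM. Aged replicate 34 again lay within the Control range. The log2 fold change in Aged vs Control was 1.30 ± 0.40 SE (edgeR adjusted p = 0.0560), which missed the threshold. Without Aged replicate 34 it was 1.63 and passed (edgeR adjusted p = 0.0162), and DESeq2 on all ovaries also called it (adjusted p = 0.0169), within a range from 0.0154 to 0.170 over 16 alternatives. Aged+CF differed from Aged by log2 -0.54 (95% interval -1.49 to 0.41, edgeR adjusted p = 0.549), an interval that holds differences of either sign. In the fits without 1 ovary the value ranged from -0.92 without Aged+CF replicate 34 to -0.235 without Aged replicate 33. Over 16 alternatives it reached 0.43.

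Cdkn2b encodes p15, an inhibitor of CDK4 and CDK6, and lies 11645 bases from Cdkn2a. Control replicates 31, 32, 33 and 34 had 34.02, 21.4, 28.6 and 14.3 CPM. Its level was 61.4, 93.1 and 22.7 CPM in Aged replicates 31, 33 and 34, and 43.3, 101 and 51.6 CPM in Aged+CF replicates 30, 32 and 34. All 3 Aged+CF ovaries were above all 4 Control ovaries, while Aged replicate 34 was within the Control range. Its difference in Aged vs Control was log2 1.26 ± 0.47 SE (edgeR adjusted p = 0.0947). The Aged+CF group differed by log2 0.15 ± 0.50 from Aged (edgeR adjusted p = 0.906) and by 1.41 ± 0.47 from Control (edgeR adjusted p = 0.229). In the fits without 1 ovary, the difference from Aged ranged from -0.31 without Aged+CF replicate 32 to 0.63 without Aged replicate 33. Over 16 alternatives it reached 1.04. Without Aged replicate 34 the difference in Aged vs Control was 1.69 and passed (edgeR adjusted p = 0.0155), and DESeq2 gave adjusted p = 0.0300 with that ovary, in a range from 0.0155 to 0.310 over 16 alternatives.

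Luteal markers rose in Aged vs Control, as Cdkn1b did, while Cdkn1a was at log2 0.07. All 7 of 7 luteal markers passed, with a median log2 fold change of 1.80, and Hsd3b1 was the most abundant per length. They summed to 11890, 8087, 10207 and 6608 CPM in Control replicates 31, 32, 33 and 34. In Aged replicates 31, 33 and 34 the sums were 26878, 36803 and 15693 CPM, and in Aged+CF replicates 30, 32 and 34 they were 15267, 22297 and 14221 CPM. As for Cdkn1b, Aged replicate 33 was highest and Aged replicate 34 the lowest of its group. No luteal marker was at 0 in any ovary, and their part in the levels of the inhibitors was not tested. In Aged+CF vs Aged the luteal median was log2 -0.55, with 0 of 7 past the edgeR test. Beside it, Cdkn1b was at log2 -0.45, Cdkn2a at -0.54, Cdkn2b at 0.15 and Cdkn1a at 1.45. With Aged replicate 34 left out, the luteal median there was -0.88 and Lhcgr passed (log2 -2.11, edgeR adjusted p = 0.0410, named after its values were seen), beside -0.76 for Cdkn1b, -0.85 for Cdkn2a and -0.25 for Cdkn2b. Cdkn1a was higher in that fit without passing, as given above. In whole ovaries, more cells of a type and more RNA per cell cannot be told apart.

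At the Cdkn2a locus, the count of the gene joins transcripts that differ in their first exon. In GENCODE M21 on GRCm38 the gene spans chr4:89274471-89294653 on the minus strand, and both coding transcripts use exon 2 at chr4:89276645-89276985. The p16 transcript (Cdkn2a-201) starts in exon 1 at chr4:89281986-89282192, 207 bases long, and the p19Arf transcript (Cdkn2a-202) in exon 1 at chr4:89294334-89294653, 320 bases long. The 15 bases on each side of the junction show why reads within exon 2 cannot be assigned to either, with the shared exon 2 in capitals, 5′ to 3′, from the GENCODE M21 transcripts.
Cdkn2a-201: cgtaccccgattcagGTGATGATGATGGGC
Cdkn2a-202: ggaatcctggaccagGTGATGATGATGGGC
Gene-level counts therefore give the sum of both.

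**Figure D3:**
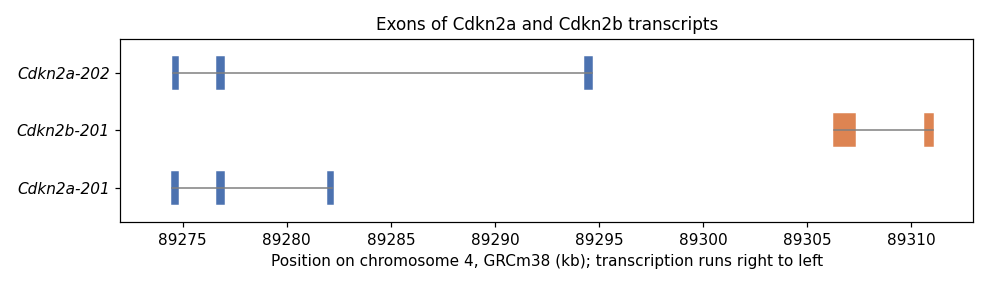
Exons of the annotated Cdkn2a and Cdkn2b transcripts on chromosome 4 (GRCm38), with position in kb on the horizontal axis and introns as lines. The Cdkn2a transcripts share exon 2 and differ in exon 1, and Cdkn2b lies 11645 bases away without overlap.

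Among the other CDK inhibitors, 1 of 3 rose in Aged vs Control. Cdkn1c, which encodes p57, went from 13.3 ± 2.04 CPM (n = 4) to 33.5 ± 21.99 CPM (n = 3), a log2 fold change of 1.33 (edgeR adjusted p = 0.0326). The rise was log2 0.69 without Aged replicate 34 (edgeR adjusted p = 0.0382). In the Aged+CF group Cdkn1c was 16.5 ± 3.30 CPM, at log2 -1.02 against Aged (edgeR adjusted p = 0.243), and at -0.36 without Aged replicate 34 (edgeR adjusted p = 0.341). That ovary had 58.6 CPM, against 24.2 and 17.7 CPM in Aged replicates 31 and 33. Cdkn2c (p18) and Cdkn2d (p19Ink4d) did not pass in any comparison, with log2 fold changes of -0.06 and 0.40 in Aged vs Control. Of the 4 regulators of p27, 3 fell with age, namely Foxo1 (log2 -1.21, edgeR adjusted p = 0.0212), which activates Cdkn1b, and Skp2 (-1.09, 0.0124) and Cks1b (-0.78, 0.0334), which are parts of the ligase that degrades p27. Cks1b did not pass once Aged replicate 34 was left out (log2 -0.60, edgeR adjusted p = 0.0729). Foxo3 differed by log2 -0.04 in Aged vs Control (edgeR adjusted p = 0.793). For the 8 regulators of the Cdkn2a locus, Bmi1 rose (log2 0.40, edgeR adjusted p = 0.0203) and Ezh2 fell (-1.12, edgeR adjusted p = 0.00515), both polycomb genes, and the other 6, the polycomb genes Cbx7 and Cbx8 among them, did not pass. Among those, Kdm6b, a demethylase that removes the mark Ezh2 writes, was at -0.60 (edgeR adjusted p = 0.0508), and fell by 0.74 without Aged replicate 34 (edgeR adjusted p = 0.0177). Id1, which restrains Ets factors at Cdkn2a, was at log2 -1.20 in the Aged+CF group against Aged (edgeR adjusted p = 0.171). None of these 15 genes passed the edgeR test in Aged+CF vs Aged or in Aged+CF vs Control.

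The inhibitors act on CDKs and their cyclins, upstream of the RB family and E2F factors. Of 17 such genes, 11 fell, 0 rose and 6 did not pass in Aged vs Control, with a median log2 fold change of -0.74. E2f1, a transcription factor of S phase entry, fell from 24.9 ± 5.46 to 8.93 ± 4.43 CPM (log2 -1.49, edgeR adjusted p = 0.0174) and E2f2 from 13.6 ± 1.43 to 5.39 ± 1.07 CPM (log2 -1.34, edgeR adjusted p = 0.00440). Ccnd1, cyclin D1, differed by log2 0.45 (edgeR adjusted p = 0.113). Of 10 proliferation genes, 7 fell, with a median of -1.44, among them Mki67 (log2 -1.95, edgeR adjusted p = 0.00640) and Plk1 (-1.81, edgeR adjusted p = 0.0117). Leaving out Aged replicate 34, 11 of the 17 were again lower, with Ccnb1 now past the test (log2 -0.998, edgeR adjusted p = 0.0195, against -1.53 and 0.0742 with it) and Cdk6 no longer (-0.65, 0.0666, against -0.67 and 0.0427). Likewise 9 of the 10 proliferation genes were then lower, at a median of -0.98, with Aurkb (log2 -0.92, edgeR adjusted p = 0.0386, against -1.37 and 0.0577) and Bub1 (-1.03, 0.0192, against -1.52 and 0.0501) added. Cdk6, Aurkb and Bub1 are named after their values were seen. Mki67 was 158 ± 20.2 CPM in Control, 40.8 ± 19.2 in Aged and 95.6 ± 21.1 in the Aged+CF group. Against Aged, 0 of these 27 genes passed in edgeR in the Aged+CF group, and 10 had an unadjusted p under 0.05, against 16.3% of all genes. A fold of at least 1.5 with an unadjusted p under 0.05 was met by 4 of the 10 proliferation genes (Mki67, Top2a, Plk1 and Mcm5). It was also met by 2 of the 17 others (E2f2 and Cdk2). All of these were higher, against 3.91% of all genes higher by that rule. The medians in Aged+CF vs Aged were log2 0.58 for the proliferation genes and 0.45 for the 17 others, and 0.29 and 0.25 when Aged replicate 34 was left out. By the same rule 2 proliferation genes (Mki67 and Top2a) and 1 of the others (E2f2) were then higher, and the share of all genes in that fit is not given here. Against Control, 0 passed with all ovaries, and without Aged replicate 34 E2f1 (log2 -0.90, edgeR adjusted p = 0.0498) and Plk1 (-0.86, edgeR adjusted p = 0.0490) were lower. Granulosa markers, which mark dividing cells of growing follicles among others, had 0 of 9 past the test in Aged vs Control, a median log2 fold change of -0.74 and sums of 7264 ± 1275 CPM in Control, 4723 ± 821 in Aged and 4359 ± 1099 in the Aged+CF group. Amh, named after its values were seen, was at log2 -2.74 with all ovaries (edgeR adjusted p = 0.0544) and passed at -2.13 without Aged replicate 34 (edgeR adjusted p = 0.00253). Inha was the most abundant of them per length, none was at 0, and their part in the cell cycle genes was not tested.

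Trp53 encodes p53 itself. In Control replicates 31, 32, 33 and 34 it was 117, 144, 107 and 141 CPM. Aged replicates 31, 33 and 34 had 93.1, 82.7 and 95.7 CPM, and Aged+CF replicates 30, 32 and 34 had 97.6, 97.8 and 118 CPM. Every Aged ovary was below every Control ovary and below every Aged+CF ovary. Trp53 fell by 0.49 on the log2 scale in Aged vs Control (1.41-fold lower, edgeR adjusted p = 0.0306). The call was lost without Control replicate 32 (edgeR adjusted p = 0.0782) or 34 (0.0814), Aged replicate 31 (0.0674) or 33 (0.0831), or Aged+CF replicate 30 (0.0515), with no filter on low counts (0.0569) and with the compared groups alone (0.0547), over a range from 0.00536 to 0.164 in 16 alternatives. The Aged+CF group differed from Aged by log2 0.21 (95% interval -0.09 to 0.51, edgeR adjusted p = 0.466).

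Mdm2, the ligase that marks p53 for degradation and is itself a p53 target, varied least. It ranged from 51.2 to 56.9 CPM in Control, from 57.2 to 65.6 CPM in Aged and from 56.4 to 63.8 CPM in the Aged+CF group. The 95% interval of its log2 fold change was -0.03 to 0.36 in Aged vs Control, -0.24 to 0.18 in Aged+CF vs Aged and -0.06 to 0.34 in Aged+CF vs Control. Differences beyond a fold of 1.5 in either direction, log2 0.585, lay outside these intervals.

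Ccng1 encodes cyclin G1, a p53 target that recruits a phosphatase to Mdm2. Its level was 74.7, 65.3, 69.5 and 72.8 CPM in Control replicates 31, 32, 33 and 34. Aged replicates 31, 33 and 34 had 94.8, 110 and 104 CPM, and Aged+CF replicates 30, 32 and 34 had 82.4, 94.3 and 81.3 CPM. The 3 groups did not overlap, with Aged+CF between Control and Aged. Ccng1 rose 1.46-fold in Aged vs Control (log2 0.54 ± 0.09 SE, edgeR adjusted p = 0.00764). This call held in each of the 10 fits without 1 ovary, with an edgeR adjusted p from 0.00710 to 0.0274. It held in 15 of 16 alternatives, over a range from 1.93e-06 to 0.149, and was lost with the replicate block. The Aged+CF group differed by log2 -0.26 from Aged (edgeR adjusted p = 0.246) and by 0.28 from Control (edgeR adjusted p = 0.214). Cdkn1a and Ccng1 are both p53 targets, and their values side by side were 0.07 and 0.54 in Aged vs Control and 1.45 and -0.26 in Aged+CF vs Aged. Whether the comparisons or the genes differ from each other in this was not tested.

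Of 29 other p53 target genes, 2 rose and 2 fell in Aged vs Control and 25 did not pass, with a median log2 fold change of 0.07. Gadd45a, a DNA damage response gene, rose from 46.7 ± 5.76 to 83.8 ± 27.4 CPM (log2 0.84, edgeR adjusted p = 0.0414). Rrm2b, the p53-inducible ribonucleotide reductase subunit, rose by log2 0.40 (edgeR adjusted p = 0.0388) and is named because the count was small, after its values were seen. Psrc1 fell by 1.55 on the log2 scale (edgeR adjusted p = 0.0137), and Pidd1, a scaffold of caspase activation, by 0.85 (edgeR adjusted p = 0.0181). Pmaip1 and Apaf1, genes of apoptosis, did not pass (log2 1.18, edgeR adjusted p = 0.0857, and -0.79, edgeR adjusted p = 0.0690), and Pmaip1 was at 0.64 without Aged replicate 34 (edgeR adjusted p = 0.252). For Aged+CF against Aged, 0 of 29 passed in edgeR and 2 had an unadjusted p under 0.05, Ak1 at log2 0.47 and Apaf1 at log2 0.67. Against Control 0 of 29 passed in edgeR and 6 had an unadjusted p under 0.05, with Gadd45a at log2 1.11 (edgeR adjusted p = 0.106) and Ak1 at log2 0.93 (edgeR adjusted p = 0.0700). Both passed without Aged replicate 34 (edgeR adjusted p = 0.0175 and 0.0243). Perp, a membrane protein of p53-dependent apoptosis, was at -0.73 (edgeR adjusted p = 0.204). Of 14 p53 regulators, 1 fell in Aged vs Control, the damage kinase Atr (log2 -0.32, edgeR adjusted p = 0.0334), and 13 did not pass. Atr did not pass without Aged replicate 34 (log2 -0.29, edgeR adjusted p = 0.0689). Atm, Chek1 and Trp63 differed by log2 -0.36, -0.93 and -1.002 without passing, and Kat5 by 0.19. Chek1 was at -0.53 and Kat5 at 0.34 without Aged replicate 34 (edgeR adjusted p = 0.124 and 0.0958).

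The promoter windows of the members, 250 bases before to 50 after the transcript start, were searched for the p53 consensus, a pair of adjoining 10-base elements. RefSeq (GRCm38.p6) held 11 windows for 8 of the 9 members. With at most 1 mismatch over the pair and no spacer, 1 Cdkn1a window and the Ccng1 window held the consensus, against 0.067% of all 32851 windows, and with a spacer of up to 13 bases the same 2 member windows did, against 0.627%. The consensus reads the same on both strands. These windows are printed because only they, of the 11, held the pair, which is in capitals.
Cdkn1a, plus strand, chr17:29090729-29091028: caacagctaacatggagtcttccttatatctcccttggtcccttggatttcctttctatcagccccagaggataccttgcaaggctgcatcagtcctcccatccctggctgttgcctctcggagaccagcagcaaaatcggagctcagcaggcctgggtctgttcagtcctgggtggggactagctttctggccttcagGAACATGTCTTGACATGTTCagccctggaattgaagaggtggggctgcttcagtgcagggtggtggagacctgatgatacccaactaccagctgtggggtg
Ccng1, minus strand, chr11:40755237-40755536: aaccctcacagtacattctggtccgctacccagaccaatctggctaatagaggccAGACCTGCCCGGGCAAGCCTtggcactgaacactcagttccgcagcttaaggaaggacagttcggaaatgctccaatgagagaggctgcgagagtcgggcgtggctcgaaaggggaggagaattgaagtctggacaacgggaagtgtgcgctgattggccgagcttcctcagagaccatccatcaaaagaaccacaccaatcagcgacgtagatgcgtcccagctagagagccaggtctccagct
The pair lies at chr17:29090928-29090947 for Cdkn1a and at chr11:40755462-40755481 for Ccng1. A match describes the letters of the window only, and the search was chosen after the data were seen.

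Lmnb1 encodes lamin B1, a filament of the nuclear lamina that is lost in senescent cells. Its level was 114, 148, 101 and 124 CPM in Control replicates 31, 32, 33 and 34. Aged replicates 31, 33 and 34 had 57.3, 58.3 and 39.9 CPM, and Aged+CF replicates 30, 32 and 34 had 82.4, 74.4 and 89.7 CPM. The 3 groups did not overlap, with Aged lowest and Aged+CF between Aged and Control. Lmnb1 fell by 1.23 on the log2 scale in Aged vs Control (2.34-fold lower, edgeR adjusted p = 0.00497), and by 1.03 without Aged replicate 34. The call held in each of the 10 fits without 1 ovary, with an edgeR adjusted p from 0.00288 to 0.0188. It held in 15 of 16 alternatives, over a range from 3.25e-09 to 0.135, and was lost with the replicate block. Against Aged, the Aged+CF level was higher in 3 of 3 ovaries, at log2 0.66 ± 0.17 SE, and did not pass (edgeR adjusted p = 0.169), whereas DESeq2 called it (adjusted p = 0.0215, in a range from 0.0215 to 0.738 over 16 alternatives). Without Aged replicate 34 the difference from Aged was log2 0.49, and from Control, with all ovaries, -0.56 (edgeR adjusted p = 0.180). Of 6 partners of the lamina, 2 fell in Aged vs Control, Lmnb2 (log2 -0.68, edgeR adjusted p = 0.00863), which encodes lamin B2, and Tmpo (-0.36, edgeR adjusted p = 0.0298), named after its values were seen and not past the test without Aged replicate 34 (-0.31, edgeR adjusted p = 0.0641). Lmna, lamin A and C, was at log2 0.47 (edgeR adjusted p = 0.0543) and Banf1 at -0.36 (edgeR adjusted p = 0.109), and without Aged replicate 34 they were at 0.31 and -0.21 (edgeR adjusted p = 0.0866 and 0.314).

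Oocyte markers, like Lmnb1, fell in Aged vs Control, with 9 of 12 lower, a median log2 fold change of -2.50 and the sums per ovary given above. Mos also passed without Aged replicate 34 (log2 -1.30, edgeR adjusted p = 0.0245, named after its values were seen). Zp3 was the most abundant per length, Figla was at 0 in Aged replicate 33 and Mos in Aged replicate 34. The oocyte sum and Lmnb1 both had their lowest value in Aged replicate 34. Their part in the result was not tested.

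Gdf15 encodes a stress-induced hormone and is a p53 target. It ranged from 1.69 to 5.09 CPM in Control, from 2.09 to 6.45 CPM in Aged and from 2.75 to 4.19 CPM in Aged+CF ovaries, all from 29 to 117 reads per ovary. The highest Control value was replicate 34 and the highest Aged value also replicate 34. Aged and Control differed by log2 0.45 (95% interval -0.59 to 1.48), Aged+CF and Aged by -0.15 (-1.26 to 0.96) and Aged+CF and Control by 0.29 (-0.74 to 1.33), and each interval holds differences of either sign. Leaving out Aged replicate 34 turned the first to -0.15 and the second to 0.47, neither past the edgeR test. Of the 6 tested genes of its receptor and stress response, 1 fell in Aged vs Control, Asns (log2 -0.58, edgeR adjusted p = 0.0258), an amino acid stress gene, which did not pass without Aged replicate 34 (-0.498, edgeR adjusted p = 0.0515). Ddit3, the stress factor CHOP, was at log2 0.49 (edgeR adjusted p = 0.0578) and Ret, the co-receptor of the Gdf15 receptor, at 0.76 (edgeR adjusted p = 0.157), or 0.32 without Aged replicate 34 (edgeR adjusted p = 0.478).

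Of 24 tested genes of the secretory phenotype, 5 rose and 0 fell in Aged vs Control, with a median of 0.47 on the log2 scale. They were Mmp12 (log2 2.21, edgeR adjusted p = 0.00866), a macrophage elastase, and Igfbp3 (0.92, 0.00805), Il1b (3.07, 0.0150), Igfbp7 (0.48, 0.0203) and Tgfb1 (0.46, 0.0389), the last 4 named after their values were seen because the count was small. The Mmp12 rise was log2 1.53 without Aged replicate 34 (edgeR adjusted p = 0.00381), and Vegfa then also passed (log2 1.27, edgeR adjusted p = 0.00708, against 0.92 and 0.0707 with it). Ccl8 and Ccl5 did not pass (log2 2.62 and 1.43), nor did Cxcl1 (-1.22). Ccl8 was at 1.37, 0.847 and 15.1 CPM in Aged replicates 31, 33 and 34 and at most 2.16 CPM in any other ovary, so its high value was in 1 ovary, and its log2 fold change without that ovary was 0.28. Ccl5 was at 3.10, 2.33 and 6.01 CPM in the same ovaries, and at log2 0.97 without Aged replicate 34. Against Aged, 0 of 24 passed in edgeR in the Aged+CF group and 6 had an unadjusted p under 0.05. A fold of at least 1.5 and an unadjusted p under 0.05 were met by 5, all lower, against 4.05% of all genes lower by this rule. Without Aged replicate 34, 3 were lower and 1 was higher by this rule, and the share of all genes in that fit is not given here. Ccl8 and Ccl5 stood at log2 -2.09 and -1.51 with Aged replicate 34 and at 0.27 and -1.04 without it. When Aged replicate 34 was left out, 1 gene of the list was higher and 2 were lower past the edgeR test in Aged+CF vs Aged. The lower genes were Igfbp3 (log2 -0.98, edgeR adjusted p = 0.0325) and Vegfa (-1.13, 0.0468), both named after their values were seen. Against Control, 2 genes of the list were then higher in the Aged+CF group and 0 lower, Mmp12 (log2 1.28, edgeR adjusted p = 0.0265) among them. Areg was at 0, 26.1, 1.12 and 0.159 CPM in Control replicates 31, 32, 33 and 34, at 0, 0 and 1.65 CPM in Aged replicates 31, 33 and 34, and at 0 in every Aged+CF ovary. Of 2 senescence-associated lysosomal enzymes, Fuca1 rose in Aged vs Control (log2 0.43, edgeR adjusted p = 0.0237) and Glb1, the gene of β-galactosidase, did not pass (log2 0.10, 95% interval -0.15 to 0.34).

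Macrophage markers, like the secretory genes, had rises and no falls in Aged vs Control, with 5 of 8 higher and a median log2 fold change of 0.94. Lyz2 was the most abundant of them per length. Their sum was 399, 422, 496 and 417 CPM in Control replicates 31, 32, 33 and 34. It was 783, 822 and 1915 CPM in Aged replicates 31, 33 and 34 and 743, 688 and 759 CPM in Aged+CF replicates 30, 32 and 34. With Aged replicate 34 left out, 4 of the 8 were higher, the median was 0.54, and Adgre1, named after its values were seen, was at log2 0.42 (edgeR adjusted p = 0.0616, against 0.51 and 0.0375 with it). None of the 8 was at 0 in any ovary, and their part in the secretory genes was not tested.

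Other cell types were read from their markers in the same way. In Aged vs Control all 5 erythroid markers rose (median log2 2.29, Hbb-bt the most abundant per length), with sums of 80.5, 112, 88.5 and 71.8 CPM in Control replicates 31, 32, 33 and 34 and 418, 638 and 265 CPM in Aged replicates 31, 33 and 34. B and plasma cell markers (3 of 5), T cell markers (3 of 4) and endothelial markers (3 of 4) had rises and no falls, and 1 of 3 theca markers fell. None of the markers of stroma (4), smooth muscle (4), surface epithelium (5), oviduct (4) or adipocytes (4) passed, and the 3 neutrophil markers, with sums of at most 0.759 CPM, could not be tested. No marker passed in Aged+CF vs Aged or Aged+CF vs Control with all ovaries in edgeR. Without Aged replicate 34, 4 of 5 erythroid markers, Lhcgr of the luteal list and Bmp15 of the oocyte list passed in Aged+CF vs Aged, Bmp15 higher and the others lower. In Aged vs Control, Jchain of the B and plasma cell list (log2 2.27, edgeR adjusted p = 0.0548, against 4.95 and 0.0218 with that ovary) and Cd3d of the T cell list (1.34, 0.0699, against 1.96 and 0.0298) then no longer passed, and Myh11 of smooth muscle was lower (-0.78, 0.00730, against -0.29 and 0.518). Against Control, the Aged+CF group then had 8 of 12 oocyte markers and Amh lower, and Akr1c18 of the luteal list and 4 of 8 macrophage markers (Adgre1, Gpnmb, Itgax and Lyz2) higher in edgeR. Gdf9 was at log2 -1.37 (edgeR adjusted p = 0.00777) and Lyz2 at 0.78 (edgeR adjusted p = 0.0113). The genes in these 3 sentences were named after their values were seen. Their part in the 9 genes was not tested.

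For each member, the genes with the most similar pattern over the 10 ovaries were named by Pearson's r of log2 CPM (prior count 2), among 14364 other genes with a mean of at least 1 CPM. Ppfibp1 (r = 0.94) and Nudt13 (0.92) were most like Cdkn1a. Slc6a6 and Stard4 (both 0.98) were most like Cdkn1b, Bag4 (0.98) and Ephx2 (0.97) most like Cdkn2b, and Mrpl44 (0.96) and Bet1l (0.95) most like Cdkn2a. Pelp1 (0.98) and Tcof1 (0.97) were most like Trp53, Rnf13 (0.92) and Brms1l (0.89) most like Mdm2, and BC029722 (0.99) and Serpinb9 (0.98) most like Ccng1. Alpk3 and Mex3c (both 0.99) were most like Lmnb1, and Nbl1 and Tnfsf12 (both 0.89) most like Gdf15. The ovaries share their group, so these values describe likeness only.

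By GENCODE M21 on GRCm38, Cdkn1a (ENSMUSG00000023067) lies at chr17:29090976-29100727, Cdkn1b (ENSMUSG00000003031) at chr6:134920401-134925513, Cdkn2a (ENSMUSG00000044303) at chr4:89274471-89294653 and Cdkn2b (ENSMUSG00000073802) at chr4:89306299-89311039. Trp53 (ENSMUSG00000059552) lies at chr11:69580359-69591873, Mdm2 (ENSMUSG00000020184) at chr10:117688875-117710758 and Ccng1 (ENSMUSG00000020326) at chr11:40748552-40755311. Lmnb1 (ENSMUSG00000024590) lies at chr18:56707813-56753424 and Gdf15 (ENSMUSG00000038508) at chr8:70629393-70632456. Only Cdkn1a overlaps another annotated gene, AC167363.2 on the opposite strand at chr17:29093416-29094461, and the sources used here do not state whether strand was used in counting, so reads of the 2 cannot be told apart where they overlap.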

How the data were processed

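Ovaries were grouped by their labels, with the replicate numbers given in brackets in the titles. The values used were unnormalized read counts, as the authors deposited them. FPKM, also deposited, followed from each count, the library total and a gene length, and the length so implied differed by at most 0.0868% between ovaries. The submitters' processing notes name TopHat, Cufflinks 2.1.1 and the build GRCm38.p4, and the counting tool is not given in the sources used here.

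Counts were analysed with edgeR 4.0.16 in R 4.3.3. Genes passing filterByExpr (18956) were scaled by TMM and tested with the quasi-likelihood F test in 1 fit of all 10 ovaries, with Benjamini-Hochberg adjustment over the genes tested. Intervals are the log2 fold change ± t × SE and are approximate. DESeq2 1.42.0, another scaling, no filter, the compared groups alone, a replicate block and leaving out each ovary were the alternatives, and leaving out Aged replicate 34 for the lists was chosen after the data were seen. Pairs of libraries of a group differed by more than counting noise.

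The members and lists were chosen with earlier results of these data known. Named genes are the 9 members, the 2 highest rises and 2 largest falls by log2 fold change of each list per comparison at a mean of at least 1 CPM and an unadjusted p under 0.05, all genes of lists of 4 or fewer, and the 2 genes most like each member. A gene chosen by this rule is not reported here. Where a symbol had more than 1 identifier, the one with most reads was used.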

Additional observations from a re-analysis of the deposited data

Results flagged for a closer look

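Gdf15 was 5.09 CPM in Control replicate 34 against 1.69 to 2.23 CPM in the other Control ovaries, a gap that is large for the range of 4 values. Control replicate 33 was far from the rest in 3 values, namely Chek1 at 13.8 CPM against 18.7 to 19.2, Ets1 at 27.2 CPM against 61.9 to 68.3, and the summed oviduct markers at 408 CPM against 17.3 to 24.2. Control replicate 32 was far from the others for Kdm6b, at 199.5 CPM against 153.5 to 156.9, and for Areg, a growth factor of the ovulatory follicle, at 26.1 CPM against 0 to 1.12. Of 73 sets of Control values compared in this way, 6 had such an ovary, and chance gives about 1 in 20, or 3.65.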

How the results depend on the processing

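Of the log2 fold changes of members over 16 alternatives each, 390 kept their direction and side of the threshold, 17 lost the call, 12 gained it and 13 changed sign, each of the last between values that did not pass. Members past the test in Aged vs Control were 4, against 15.4% of all genes. They were 2 under the compared groups alone, 2 with a fold of at least 1.5 as well, and 2 to 6 without 1 ovary. Calls among all genes also rose without Aged replicate 34, as given above. Shares of all genes are not given here for the compared groups alone, for an adjusted p with a fold, or for the fits without 1 ovary. Counts under these settings alone therefore do not describe the members, in this comparison or in those below. For DESeq2 and for a fold with an unadjusted p, the shares of all genes are given above. In Aged+CF vs Aged the count of 0 became 2 with DESeq2 and 2 with a fold of at least 1.5 and an unadjusted p, and was 0 in every fit without 1 ovary. In Aged+CF vs Control it became 1 with DESeq2, 1 with the compared groups alone, 3 with a fold of at least 1.5 and an unadjusted p, and 0 to 1 without 1 ovary. With no filter, more genes were tested (36618) and 2011 passed in Aged vs Control. Genes past the test were 4275, 773 and 734 in the 3 comparisons with DESeq2. The cause was not tested.

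No pairing by ovary number was seen in Aged vs Control (r of deviations from -0.185 to 0.138 over 3 pairs, 1 of 3 Aged ovaries being most like its own number). Same-number pairs had r of -0.0613 in Aged+CF vs Aged, and of -0.0874 and 0.153 in Aged+CF vs Control. So few pairs cannot exclude a pairing. With the replicate block, 0 members and 0 genes passed in any comparison, and Cdkn2a in Aged+CF vs Aged was at log2 0.43. Without the ovaries Aged 34 and Control 33, chosen after seeing the data, Gdf15 was at -0.24 with age, and Gdf15 was at 0.47 and Cdkn2b at -0.25 for Aged+CF against Aged. Leaving out each ovary in turn, Cdkn1a ranged from -0.0926 to 0.331 and Gdf15 from -0.15 to 0.91 with age, while for Aged+CF against Aged Cdkn2b ranged from -0.31 to 0.63, Gdf15 from -0.45 to 0.47 and Mdm2 from -0.0997 to 0.0285. Of the lists, the cell cycle genes lower in Aged vs Control went from 11 to 7 with no filter. Reads per ovary were 18 to 80 for Cdkn2a and 29 to 117 for Gdf15.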
